A study of Mus musculus with 28 samples.

Results

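Vomeronasal receptors of type 1 form one of the large families of pheromone receptors, and 231 of the 49554 genes placed on mouse chromosomes 1 to 19 and X carry a symbol that begins with Vmn1r without the pseudogene suffix. These 231 genes were chosen by symbol alone from the RefSeq table of GRCm38.p6, the assembly of mm10. They were followed across 24 chromatin immunoprecipitation libraries from the mouse melanoma line B16OVA (written B16) and the mouse colon adenocarcinoma line MC38. Both lines were grown in puromycin after transduction with the pCRISPR-v2-puro construct, which was either empty (control) or held a Setdb1 guide (Setdb1 KO). Setdb1 encodes a histone methyltransferase that acts on lysine 9 of histone H3. In each of the 4 groups, trimethylated (H3K9me3) and acetylated (H3K9Ac) lysine 9 of histone H3 were profiled in 3 numbered libraries each, and 4 input samples were not analysed here. The labels do not say whether a KO line was 1 clone, or whether replicates were separate cultures, so p-values measure only the spread between these libraries.

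Each type 1 receptor is a seven-helix protein made in apical sensory neurons of the vomeronasal organ. It signals through the G protein subunit Gnai2 and the cation channel Trpc2, and a neuron normally expresses a single receptor gene and keeps the others silent. H3K9me3 is a mark of silenced chromatin that covers many chemoreceptor genes in sensory tissue, whereas H3K9Ac marks active promoters and enhancers. Neither tumour line is a vomeronasal cell, so the receptor genes were seen outside the tissue in which they are normally used.

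The genes lie in 8 clusters of 3 or more, defined here by neighbours at most 1 Mb apart, which hold 221 of the 231 members. Chromosome 6 has clusters near 57 Mb (28 genes, Vmn1r4 to Vmn1r31), 67 Mb (8 genes) and 90 Mb (15 genes). Chromosome 7 has clusters near 5 Mb (11 genes), 10 Mb (24 genes) and 20 Mb (86 genes). The remaining clusters are on chromosome 13 near 22 Mb (35 genes) and on chromosome 17 near 20 Mb (14 genes). Vmn1r pseudogenes lie among them in every cluster, from 1 in the 67 Mb cluster to 36 in the chromosome 13 cluster, and 19 zinc finger genes lie inside the 10 Mb cluster. The other 10 members stand alone or in pairs. Vmn1r186 and Vmn1r187 among them are placed before base 3000000 of chromosome 7, where no library had an island, so they could not be measured.

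RefSeq promoter sequences (GRCm38.p6, 250 bases before to 50 bases after the start) matched 205 of the 231 members. Their median GC content was 36.0%, against 52.67% over all 32851 promoters, and their median number of CpG sites was 1 against 7. The letters TATAAA on either strand were found in 42.4% of the receptor promoters and 13.6% of all promoters, CCAAT in 67.3% and 37.4%, and TAATTA in 7.32% and 5.29%. Of the 205 promoters, 85 had another Vmn1r promoter more than 95% identical over at least 200 aligned bases, and each was counted. The part of such copies and of the GC content in these shares was not tested. Matches of different motifs may overlap, a match is not a binding site, and no match says only that the letters are not in the window. The clusters differed among themselves: TATAAA was in 15 of 24 promoters near 57 Mb and in 0 of 14 near 90 Mb, and CCAAT was in 74 of 83 near 20 Mb of chromosome 7.

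The 5 promoters printed here carry the main contrasts of the data. The start of Vmn1r20 (chr6:57431441-57431740, plus strand) and of Vmn1r52 (chr6:90178466-90178765, plus strand) lay under H3K9me3 islands in B16 libraries only. The start of Vmn1r225 (chr17:20502049-20502348, plus strand) did so in MC38 libraries only. Vmn1r111 (chr7:20703167-20703466, minus strand) has the same 300 letters as 5 other members of its cluster, and Vmn1r181 (chr7:23983711-23984010, plus strand) had H3K9Ac islands just upstream in B16. Capitals mark matches to any of the 3 motifs on either strand.
Vmn1r20: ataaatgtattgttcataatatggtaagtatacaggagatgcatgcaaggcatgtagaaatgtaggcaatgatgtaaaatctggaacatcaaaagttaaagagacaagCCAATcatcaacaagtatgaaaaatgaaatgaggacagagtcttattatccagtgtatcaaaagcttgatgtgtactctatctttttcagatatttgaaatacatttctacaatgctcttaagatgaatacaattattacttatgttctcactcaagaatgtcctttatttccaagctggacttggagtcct
Vmn1r52: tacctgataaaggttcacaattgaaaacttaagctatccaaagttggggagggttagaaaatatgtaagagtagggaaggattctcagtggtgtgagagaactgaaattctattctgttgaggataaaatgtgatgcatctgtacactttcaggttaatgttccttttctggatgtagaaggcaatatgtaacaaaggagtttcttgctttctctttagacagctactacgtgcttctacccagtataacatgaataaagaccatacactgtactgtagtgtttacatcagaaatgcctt
Vmn1r225: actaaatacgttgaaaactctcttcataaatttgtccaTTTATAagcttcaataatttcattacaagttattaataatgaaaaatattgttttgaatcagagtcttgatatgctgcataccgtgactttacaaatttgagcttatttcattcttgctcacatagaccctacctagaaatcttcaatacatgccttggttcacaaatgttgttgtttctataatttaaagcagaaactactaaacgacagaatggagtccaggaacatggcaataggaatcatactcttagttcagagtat
Vmn1r111: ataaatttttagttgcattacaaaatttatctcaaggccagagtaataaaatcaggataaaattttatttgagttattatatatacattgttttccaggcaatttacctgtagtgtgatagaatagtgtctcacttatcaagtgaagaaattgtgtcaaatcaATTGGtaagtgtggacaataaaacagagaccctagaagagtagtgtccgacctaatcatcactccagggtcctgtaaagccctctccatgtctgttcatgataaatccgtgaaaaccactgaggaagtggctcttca
Vmn1r181: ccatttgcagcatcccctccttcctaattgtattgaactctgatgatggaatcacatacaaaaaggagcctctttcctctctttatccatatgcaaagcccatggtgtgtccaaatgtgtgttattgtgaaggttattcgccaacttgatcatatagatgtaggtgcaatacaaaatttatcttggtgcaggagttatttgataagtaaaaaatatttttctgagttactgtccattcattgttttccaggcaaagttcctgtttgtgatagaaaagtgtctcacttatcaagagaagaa

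The files list islands, stretches of enriched 200 bp windows with their read counts. Values below are island reads from 2 kb before to 2 kb after a gene, per 1000000 island reads of the library (RPM), and a value of 0 means that no island was called there. Totals were 15198930 to 45414798 island reads for H3K9me3 and 28451633 to 78082966 for H3K9Ac. The H3K9me3 libraries differed in the length under islands, from 215 Mb in replicate 3 of the MC38 KO to 563 Mb in replicate 1 of the same group. All 3 B16 KO libraries (367 to 431 Mb) covered more than all 3 B16 controls (285 to 325 Mb). The part of this breadth in the counts of members below was not tested. As a check of the labels, all 7 melanocyte genes tried had H3K9Ac islands in all B16 control libraries, and 4 of the 7 also did in all 3 MC38 controls. The other melanocyte genes, Tyr, Dct and Tyrp1, had none in MC38. Of 8 gut and simple epithelium genes, 7 had H3K9Ac islands in all 3 MC38 controls and 5 in all 3 B16 controls. Of 5 leukocyte genes, 2 had them in all 3 B16 controls and 3 in all 3 MC38 controls, and of 6 fibroblast genes 5 in both. Of 6 vomeronasal sensory neuron genes, 5 had them in all 3 B16 controls and 6 in all 3 MC38 controls. Presence of islands alone is thus a weak check of cell identity. Setdb1 itself kept its H3K9Ac islands in the KO (76.2 ± 8.68 RPM in B16 KO and 75.9 ± 3.43 in B16 control, SD, n = 3), as a guide need not remove the mark, so this checks nothing.

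H3K9me3 covered a minority of the receptor genes, and which ones depended on the cluster and the line. An island was present in all 3 libraries at 53 members in the B16 control (22.9%), 66 in the B16 KO (28.6%), 33 in the MC38 control (14.3%) and 29 in the MC38 KO (12.6%). Over all gene regions the shares were 21.6%, 21.7%, 15.5% and 11.1%. By bases under islands the members stood further from all gene regions in B16, with 20.1% to 21.2% of member bases against 8.31% to 9.74% in the controls and 23.4% to 28.9% against 11.3% to 12.3% in the KO. In the MC38 controls the shares were 10.3% to 18.9% of member bases against 8.17% to 11.1%, and in the MC38 KO 6.13% to 26.8% against 5.79% to 12.9%. Type 2 vomeronasal receptor genes (126 Vmn2r genes), which serve the basal neurons of the same organ, had 31.7% in the B16 control and 57.1% in the MC38 control. Olfactory receptor genes (1118) had 11.99% and 13.77%. Region lengths were not matched between these sets of genes, and a longer region can meet an island more often. The part of length in these shares was not tested. By this rule of islands in all 3 libraries the Vmn1r share was lower in MC38 than in B16 controls and the Vmn2r share higher. Counting islands in any library, the Vmn1r share was higher in MC38 (42.9% against 36.8%), so its order depends on the rule, and no test was made. Without replicate 3 of the MC38 KO, the library with the least covered length, 64 members had islands in both other libraries of that group.

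**Figure D1:**
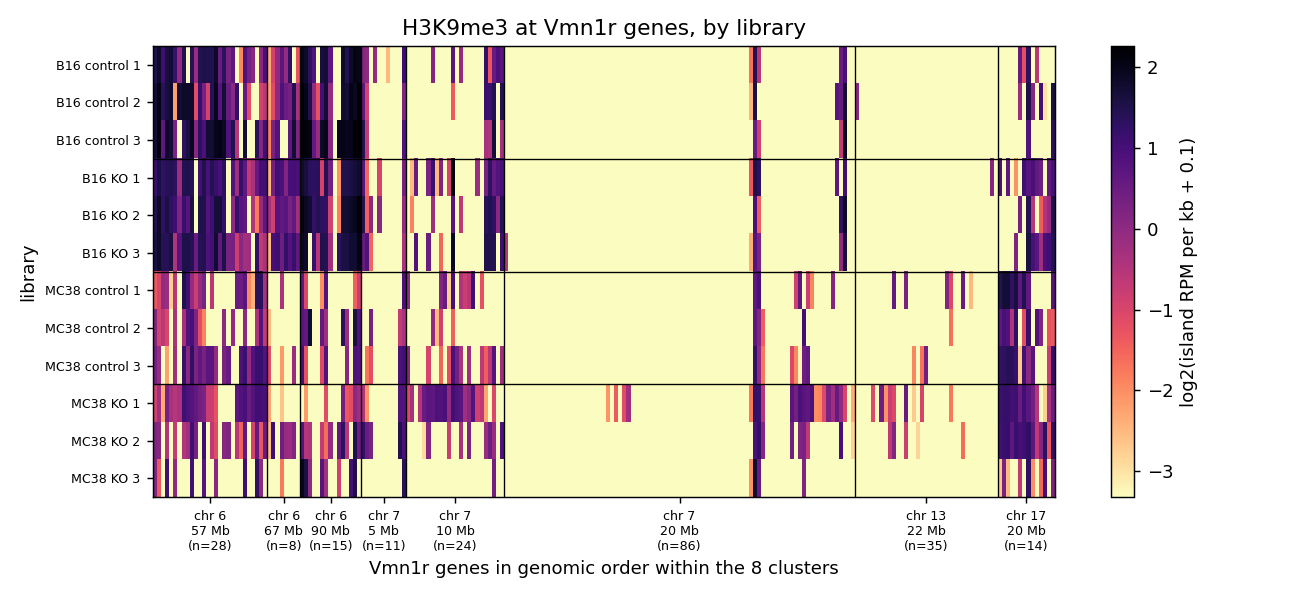
H3K9me3 level (log2 of island RPM per kb plus 0.1, colour scale) of the 221 Vmn1r genes in the 8 clusters (columns, in genomic order) in the 12 libraries (rows). The chromosome 6 clusters are dark in all 6 B16 libraries, the left part of the chromosome 17 cluster is dark in MC38 controls, and most of the 86 genes near 20 Mb of chromosome 7 and the 35 on chromosome 13 have no island.

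A small core carried the mark in every library. Islands were present in all 12 H3K9me3 libraries at 14 members, of which 8 lie near 57 Mb and 3 near 90 Mb of chromosome 6. They were Vmn1r4, Vmn1r5, Vmn1r7, Vmn1r9, Vmn1r13, Vmn1r16, Vmn1r26, Vmn1r30, Vmn1r41, Vmn1r46, Vmn1r53, Vmn1r65, Vmn1r158 and Vmn1r231. At the other end, 87 members had no island in any of the 12, including 62 of 86 near 20 Mb of chromosome 7 and 19 of 35 on chromosome 13. The 87 also include Vmn1r186 and Vmn1r187, which could not be measured. The B16 and MC38 controls shared 21 members with islands in all libraries, 39.6% of the B16 set and 63.6% of the MC38 set. The B16 control and B16 KO sets shared 49, which is 92.5% of the control set and 74.2% of the KO set. The counts of this paragraph were not set beside the same counts over all gene regions, so they do not single out the receptors.

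Levels were compared between clusters as RPM per kb of the merged member regions. The cluster near 90 Mb of chromosome 6 was the highest of the 8 in all 6 B16 libraries. In MC38 the chromosome 17 cluster was highest in 4 of 6 libraries and the 90 Mb cluster in 2. In the B16 controls the means were 2.83 ± 0.447 RPM per kb (SD, n = 3 libraries, as for all levels here) near 90 Mb, 2.15 ± 0.197 near 57 Mb and 0.874 ± 0.151 near 67 Mb. The chromosome 7 clusters followed with 0.342 ± 0.119 near 10 Mb, 0.304 ± 0.0897 near 5 Mb and 0.0833 ± 0.0184 near 20 Mb. Near 5 Mb and near 10 Mb did not differ beyond their spread. Chromosome 13 was nearly bare at 0.00891 ± 0.0154, from a single library with an island, and chromosome 17 reached 0.418 ± 0.200. The clusters near 57 Mb and 90 Mb lay above the chromosome 13 cluster in 12 of 12 libraries, and that near 67 Mb in 10 of 12.

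Many members near 20 Mb of chromosome 7 are near-identical in sequence. Of its 83 members with a promoter sequence, 73 had another Vmn1r promoter more than 95% identical over at least 200 aligned bases. Among these 73, 15 (20.5%) had an H3K9me3 island in any library, against 6 of 6 members of the same cluster whose closest copy was at most 95% identical and 2 of 4 with no aligned copy. The letters printed for Vmn1r111 are shared by Vmn1r118, Vmn1r131, Vmn1r138, Vmn1r257 and Vmn1r166. Short reads from such copies cannot be assigned to 1 gene, and how reads with several matches were treated is not given in the sources used here, so absence of islands at these genes is uncertain. On chromosome 13 the order was not the same: 4 of 6 members with a copy over 95% identical, 7 of 16 members with a closest copy at most 95% identical and 5 of 10 with no aligned copy had any island. The part of sequence likeness in these counts was not tested.

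Mean cover before the gene starts was compared with that upstream. In the 57 Mb cluster, 58.6% of bases in the 1 kb before the start lay under islands in B16 (mean of 6 libraries, 24 genes with a known start), against 81.1% in the 1 kb bin from 10 to 9 kb upstream. In MC38 the same bins had 23.6% and 47.3%. Near 90 Mb (14 genes) the values were 67.6% and 80.5% in B16 and 22.4% and 56.7% in MC38. On chromosome 17 (12 genes) they were 29.1% and 59.3% in B16, and 51.4% and 68.6% in MC38. In these 3 clusters mean cover was lower before the start than in the upstream bin in both lines, a description with no test. Near 67 Mb (7 genes) the B16 values were 59.7% before the start, 94.6% upstream and 57.6% in the bin from 10 to 11 kb downstream, so the start was not lower than that downstream bin. In the 57 Mb cluster the B16 libraries ran from 54.6% to 62.8% before the start and from 70.6% to 88.9% upstream, without overlap, while the MC38 libraries overlapped between these bins, as did those of both lines on chromosome 17. Near 90 Mb the MC38 libraries did not overlap (6.24% to 37.0% against 42.9% to 65.1%), and the B16 libraries did. As the receptor genes repeat along a cluster, distant bins of a gene can fall on its neighbours.

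**Figure D2:**
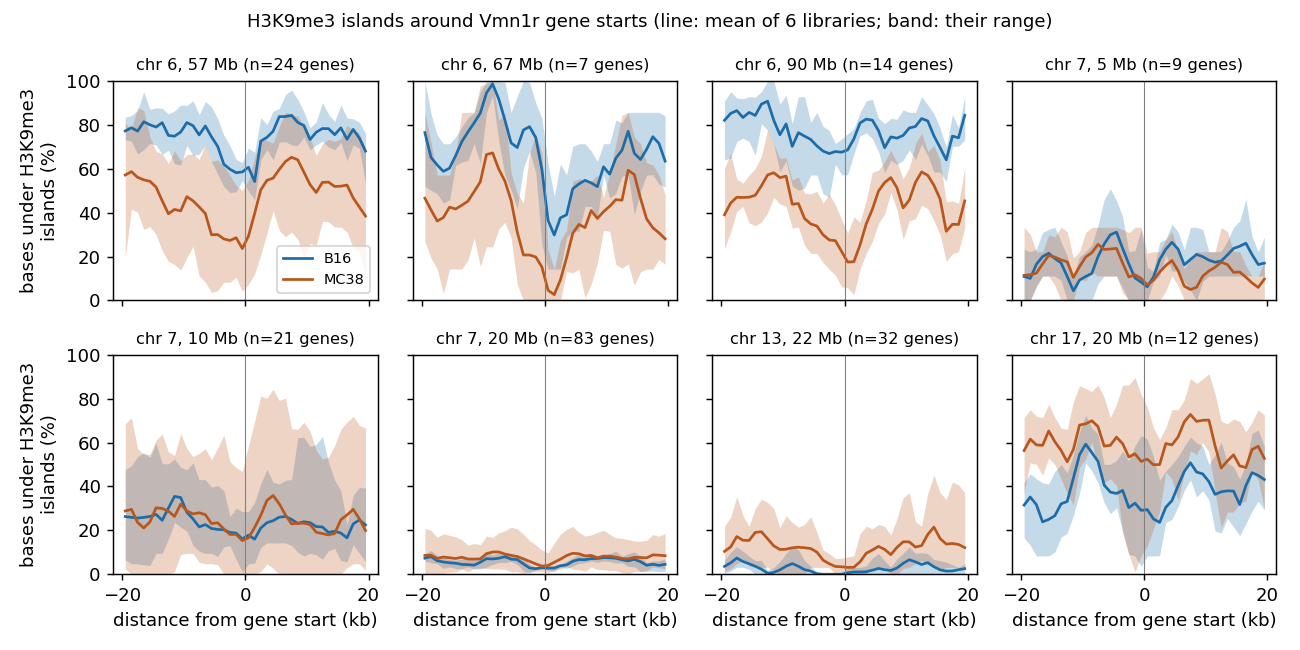
Share of bases under H3K9me3 islands (%) in 1 kb bins from 20 kb upstream to 20 kb downstream of the start of Vmn1r genes, by cluster, in B16 (blue) and MC38 (orange). Lines are means over the 6 libraries of a line, control and KO together, and bands their range. In the 3 chromosome 6 clusters the B16 line runs above the MC38 line, and both are lower just before the start than 10 kb upstream. Near 67 Mb the B16 line is not lower there than 10 kb downstream. On chromosome 17 the MC38 line is higher.

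The lines differed by cluster and in both directions. In the cluster near 57 Mb, the 3 B16 controls had 2.01, 2.07 and 2.38 RPM per kb and the 3 MC38 controls 0.714, 0.636 and 1.14, a ratio of means of 2.60. Near 90 Mb the B16 controls had 2.55, 2.59 and 3.34 and the MC38 controls 0.294, 1.12 and 0.601, a ratio of 4.22. Near 67 Mb the B16 controls had 0.700, 0.968 and 0.955 and the MC38 controls 0.0691, 0.0197 and 0.184, a ratio of 9.60. The whole stretch from first to last member near 67 Mb differed less. Its control means were 2.101 ± 0.208 in B16 and 0.962 ± 0.196 in MC38. By member regions, every B16 library, control or KO, lay above every MC38 library in all 3 chromosome 6 clusters. The chromosome 17 cluster went the other way: the B16 controls had 0.327, 0.648 and 0.281 and the MC38 controls 1.49, 0.983 and 1.33, which is 3.03-fold higher in MC38 without overlap. With the KO libraries included, B16 and MC38 overlapped on chromosome 17. The remaining 4 clusters overlapped between the controls of the lines. The separations near 57, 67 and 90 Mb and on chromosome 17 held with stricter islands, without flanks and with the edgeR scaling, but their size moved. With stricter islands the means near 67 Mb were 0.309 in B16 and 0.0628 in MC38, and on chromosome 17 they were 0.0816 and 1.04. Without flanks those near 67 Mb were 0.279 and 0.0132. The 10 Mb cluster separated as well with stricter islands, and the 20 Mb cluster of chromosome 7 without flanks, both lower in MC38.

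**Figure D3:**
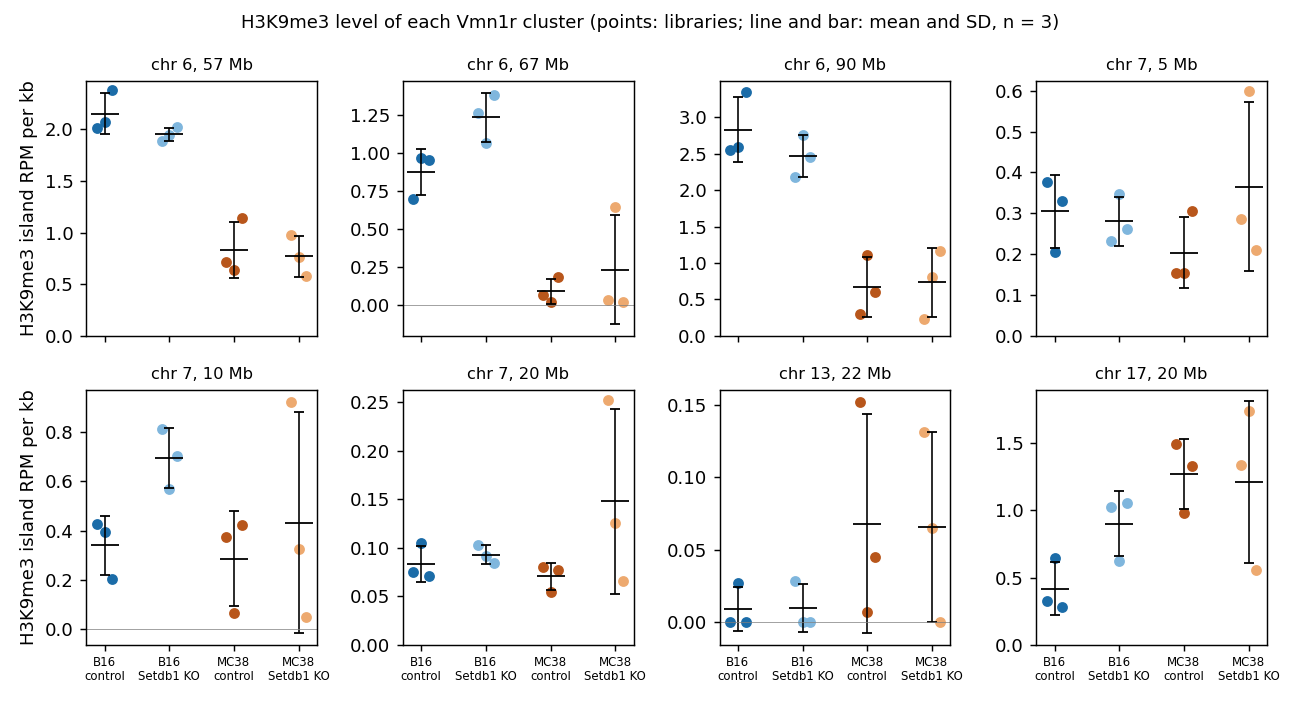
H3K9me3 level of each Vmn1r cluster (island RPM per kb of member regions, linear axes that differ between panels) in B16 and MC38, control and Setdb1 KO. Points are the 3 libraries of a group, and the line with its bar is the mean with the SD. The B16 points lie above all MC38 points in the 3 chromosome 6 panels, and the MC38 controls lie above the B16 controls in the chromosome 17 panel.

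Single genes were tested in 1 edgeR fit per mark over all gene regions with a mean of at least 10 reads, which 126 members passed for H3K9me3 and 12 for H3K9Ac. All but 1 of the 231 members are annotated as protein-coding genes, and 12 of the 231 member regions also hold another gene. A member that passed through 1 line only had to differ, so these are not all members. Between the MC38 and B16 controls, 6 of the 126 were called (4.76%, adjusted p under 0.05), against 7.13% of the 25677 regions tested (2.82% higher and 4.31% lower in MC38). The members' share is no larger than that background. Control libraries of the lines did not overlap at 45 members (35.7%), beside 35.4% of all regions tested, which is also near the background. The median log2 difference, MC38 minus B16, was -0.03 over the members and -0.20 over all regions tested. Of the 6 called, 5 were higher in B16, and 4 of these are on chromosome 6 within the clusters.

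Vmn1r225 (mm10, chr17:20502299-20503195, plus strand), near the start of the chromosome 17 cluster, had 15.5, 9.21 and 11.4 RPM of H3K9me3 in the MC38 controls and 10.9, 10.4 and 5.44 in the MC38 KO. It had no island in any of the 6 B16 libraries (adjusted p = 0.0109). The promoter printed above was wholly under an island in all 3 MC38 controls and in 2 of 3 MC38 KO libraries. Its neighbours Vmn1r224, Vmn1r226 and Vmn1r228 had the same pattern between the controls, for example 16.4, 12.8 and 11.8 RPM at Vmn1r228 in MC38 against 0 in all B16 controls. They did not pass (adjusted p = 0.110, 0.102 and 0.0902). In this cluster, the genes with islands in all 3 MC38 controls and in no B16 control were Vmn1r224 to Vmn1r228, at 1 end. The islands of the MC38 controls were not limited to that end. Of the 14 members, 8 had islands in all 3 MC38 controls and 1 had none there.

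Vmn1r20 of the 57 Mb cluster (chr6:57431691-57432602, plus strand) had 6.63, 7.93 and 19.4 RPM in the B16 controls, 8.92, 15.3 and 7.04 in the B16 KO and no island in the 6 MC38 libraries (adjusted p = 0.0181). Its promoter was 84.4% covered on average in the B16 controls and wholly covered in the B16 KO. Vmn1r52 of the 90 Mb cluster (chr6:90178716-90179645, plus strand) had 16.8, 19.5 and 18.7 RPM in the B16 controls and no island in the MC38 controls (adjusted p = 0.0286). It was the most even of these genes in B16, and its region also holds the predicted gene Gm20426. In the MC38 KO it had 1.69, 0 and 9.66 RPM, so islands appeared there in 2 of 3 libraries. Vmn1r34 of the 67 Mb cluster (chr6:66636823-66637752, minus strand) had 4.22, 4.42 and 8.13 RPM in the B16 controls and none in MC38 (adjusted p = 0.0328). Vmn1r261, a single gene near 3 Mb of chromosome 6, had 19.9, 16.7 and 7.14 RPM in the B16 controls and none in the MC38 controls (adjusted p = 0.0444). All 5 genes higher in B16, Vmn1r43 below included, had islands in all 6 B16 libraries.

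These calls depend on which libraries enter the fit. Leaving out each of the 12 libraries in turn, Vmn1r225 was called in 12 of 12 fits, Vmn1r20 in 10, Vmn1r43 in 7, Vmn1r52 in 4, and Vmn1r34 and Vmn1r261 in 3 each. The number called ran from 1, without replicate 2 of the B16 KO, to 12, without replicate 3 of the MC38 KO. Without the 2 kb flanks 0 members were called by edgeR (79 tested), beside 499 regions higher and 774 lower of 18424. DESeq2 on the full regions called 33 of 126 members, beside 3269 regions higher and 3785 lower of 25677.

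**Figure D4:**
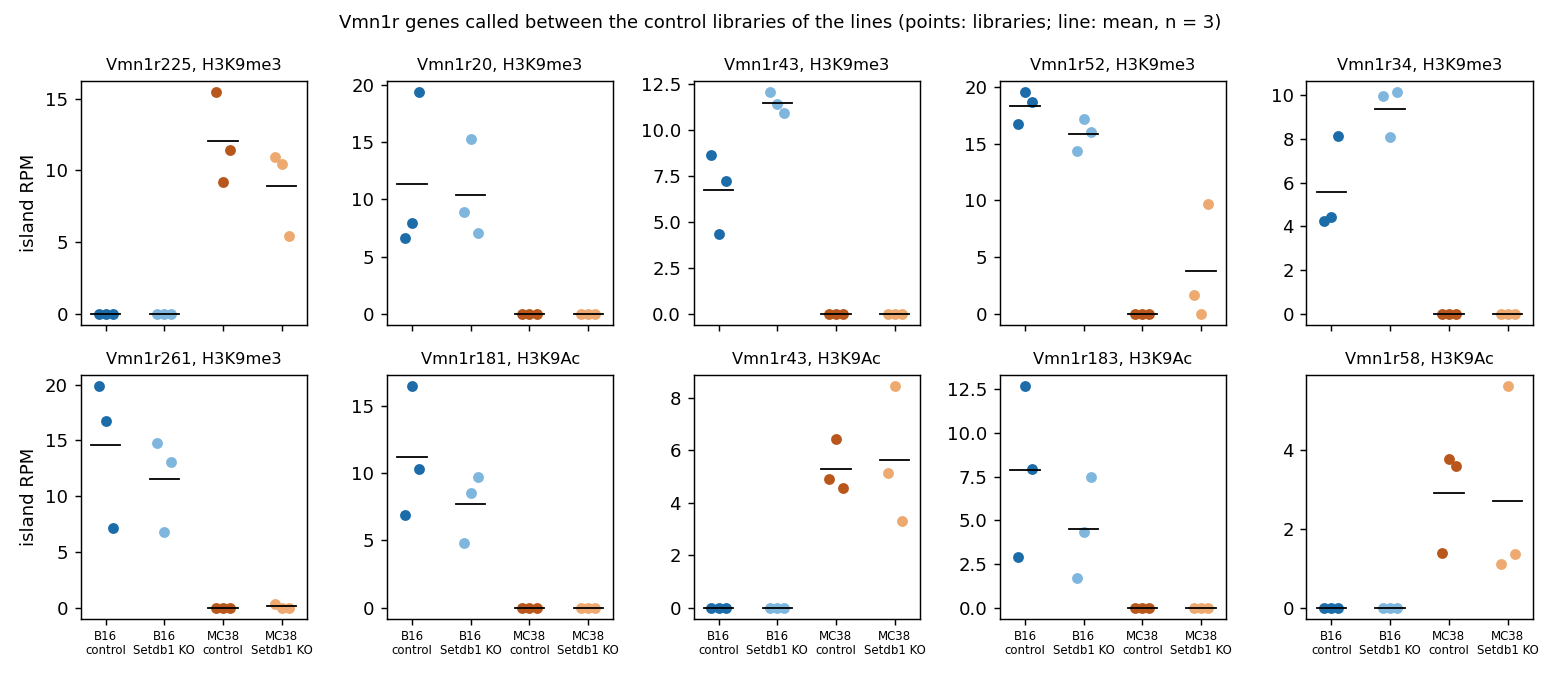
Island RPM (linear axes that differ between panels) of the Vmn1r genes called between the control libraries of the lines, 6 for H3K9me3 and 4 for H3K9Ac, in all 4 groups. Points are libraries and lines group means (n = 3). In each panel the control libraries of 1 line are all at 0, where no island was called, and the KO libraries of each line mostly follow its controls.

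Setdb1 KO called no member in either line. For H3K9me3 in B16, edgeR called 0 of 126 members against 0.312% of all regions. An unadjusted p under 0.05 was found at 5 members, all higher in the KO, and at 1985 of the 25677 regions tested. DESeq2 called 7 members, all higher, beside 1173 regions higher and 953 lower. In MC38 edgeR called 0 against 0.136%, with 12 members (10 higher, 2 lower) and 1759 regions at an unadjusted p under 0.05. DESeq2 called 10 members, all higher, beside 769 regions higher and 1071 lower. The test of the difference between the lines' KO effects called 0 against 0.397%. An unadjusted p under 0.05 was found at 11 members and 2408 regions. DESeq2 called 11 members (4 higher, 7 lower), beside 1635 regions higher and 1228 lower. The median log2 change of the tested members was 0.05 in B16 and 0.40 in MC38, where the median of all regions tested was 0.00 in both. The MC38 median of members depended on single libraries. It was 0.00 without replicate 1 of the MC38 KO, the library with the most covered length. It was 0.23 without replicate 2 and 0.83 without replicate 3. KO and control libraries did not overlap at 5 members in each direction in B16 (3.97%, beside 4.53% of regions higher and 11.9% lower).

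In B16 the members with the smallest p lay on chromosome 17. Vmn1r236 had 7.48, 4.29 and 10.3 RPM in the KO and no island in the B16 controls (adjusted p = 0.510). It was the only member with islands in all 3 libraries of the B16 KO and none of the B16 control. In MC38 the smallest adjusted p was 0.431, at Vmn1r52, whose values are given above. Vmn1r55 of the 5 Mb cluster had 3.03, 11.3 and 0 RPM in the KO and none in the controls (adjusted p = 0.454). Vmn1r235 on chromosome 17 had 0.301, 15.5 and 12.1 RPM in the MC38 KO and none in the controls (adjusted p = 0.567), and was the only member with that pattern in MC38. Among genes lower in the KO, Vmn1r46 of the 90 Mb cluster had 1.75, 1.09 and 3.57 RPM in the MC38 KO and 8.13, 3.74 and 8.11 in the controls without overlap (adjusted p = 0.715). None of these differences passed the test.

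By cluster, scaled by total island reads, 2 levels separated KO from control in B16, and both also did with stricter islands, without flanks and with the edgeR scaling. Near 10 Mb of chromosome 7 the B16 KO had 0.810, 0.568 and 0.703 RPM per kb and the control 0.426, 0.394 and 0.205, a 2.03-fold higher mean without overlap. Near 67 Mb of chromosome 6 the KO had 1.27, 1.07 and 1.38 and the control 0.700, 0.968 and 0.955, a 1.42-fold higher mean without overlap. Both are higher, not lower, H3K9me3 over the member regions in the KO. Over the whole stretch from first to last member, these differences were not seen beyond the SD. Near 67 Mb the stretch had 1.992 ± 0.0313 in the B16 KO and 2.101 ± 0.208 in the control. Near 10 Mb it had 0.602 ± 0.199 and 0.509 ± 0.0725. The chromosome 17 cluster had means of 0.901 in the B16 KO and 0.418 in the control, with overlapping libraries. It separated, higher in the KO, with the edgeR scaling (0.911 against 0.367), with stricter islands (0.403 against 0.0816) and without flanks (0.948 against 0.339). Its whole stretch had 0.584 ± 0.0194 in the B16 KO and 0.556 ± 0.0582 in the control. The 20 Mb cluster of chromosome 7 separated with stricter islands (0.0782 against 0.0379). The 57 Mb cluster separated in opposite directions, higher in the KO with the edgeR scaling (1.97 against 1.86) and lower without flanks, and it overlapped by total island reads and with stricter islands. In MC38 no cluster separated KO from control. The covered lengths given above also separated the B16 genotypes.

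Outside the clusters, H3K9me3 was found at all 8 placed members in some library. Vmn1r1 on chromosome 1 had islands in all 6 B16 libraries (5.41 to 11.8 RPM) and in 1 of 3 MC38 libraries of each genotype. In the B16 controls and the MC38 KO these islands met only its flanks, not the gene itself. On chromosome 4, Vmn1r2 had islands in 5 of 6 B16 and 4 of 6 MC38 libraries. Its neighbour Vmn1r3 had 3.66 to 8.96 RPM in the 6 B16 libraries, and Vmn1r238 on chromosome 18 had 1.80 to 9.26. Vmn1r90, Vmn1r184 and Vmn1r185 on chromosome 7 had islands in all 3 libraries of no group.

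Within a cluster the genes differed widely. Averaged over the 12 libraries, the 57 Mb cluster ran from 0.425 RPM per kb at Vmn1r27 to 2.36 at Vmn1r13, and the 90 Mb cluster from 0 at Vmn1r48 to 2.86 at Vmn1r40. Vmn1r40 had 29.7, 35.1 and 35.1 RPM in the B16 controls and 11.5, 12.4 and 14.9 in the MC38 controls, without overlap. Vmn1r48 shares its promoter letters with Vmn1r47. Near 5 Mb of chromosome 7, Vmn1r65 was the highest with islands in all 12 libraries (4.70 to 17.8 RPM), while Vmn1r62 had none. Near 10 Mb, Vmn1r87 led with 6.67 to 14.9 RPM in the 6 B16 libraries and 0 to 7.79 in the 6 MC38 libraries. The 20 Mb cluster of chromosome 7 ran from 0 at 62 genes to 2.12 at Vmn1r158, which had islands in all 12 libraries (6.63 to 15.9 RPM). On chromosome 17 the highest was Vmn1r231 at 2.06, with 4.71 to 14.2 RPM over the 12 libraries, and the lowest Vmn1r236 at 0.510. On chromosome 13 even the highest, Vmn1r201, reached only 0.245. Near 5 Mb and near 20 Mb, marked genes thus stood inside clusters that were otherwise low.

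H3K9Ac was nearly absent from the receptor genes. Islands in all 3 libraries were present at 3 members in each control group and in the B16 KO (1.30%) and at 4 in the MC38 KO (1.73%), against 48.5% to 51.5% of all gene regions. The shares were 1.59% of Vmn2r genes and 1.70% of olfactory receptor genes in the B16 control. Region lengths were not matched between these sets. By bases under H3K9Ac islands, the members had 0.425% to 1.35% over the libraries and all gene regions 24.9% to 29.9%. Altogether 15 of 231 members had an H3K9Ac island in any library, and 13 of these also had an H3K9me3 island in some library. The chromosome 13 cluster had none.

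Of the 12 members tested for H3K9Ac, 4 were called between the control libraries of the lines, beside 19.4% of the 33363 regions tested. Setdb1 KO called 0 in B16 (0.0839% of all regions) and 0 in MC38 (0.126%), and the difference of the KO effects called 0 (0.174%) by edgeR. No member had an unadjusted p under 0.05 in these 3 comparisons, beside 1376, 1043 and 1426 regions. DESeq2 also called 0 members. Over all regions it called 565 higher and 459 lower in B16, 499 and 375 in MC38, and 660 and 732 for the difference. The 4 calls between the lines held in 12 of 12 fits with a library left out, and were 0 without the 2 kb flanks (7 members tested).

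Vmn1r181 had 6.86, 16.5 and 10.3 RPM of H3K9Ac in the B16 controls and 4.82, 8.5 and 9.68 in the B16 KO, and no island in MC38 (adjusted p = 0.00100). Its near neighbour Vmn1r183 had 2.91, 12.7 and 7.96 RPM in the B16 controls and 1.69, 4.32 and 7.47 in the KO, and none in MC38 (adjusted p = 0.00408). At both genes the B16 KO value was below its same-numbered control in 3 of 3 pairs, but neither passed the edgeR test of the KO, with or without the replicate block. Both genes sit at the distal end of the 20 Mb cluster of chromosome 7, in which all other members lacked H3K9Ac. The islands began 4.76 to 2.36 kb upstream of the start of Vmn1r181 and reached over the start in 2 of 6 libraries, so most of the acetylated stretch was upstream of the printed promoter. At Vmn1r183 they began 4.97 to 2.37 kb upstream and covered the start in 1 of 6.

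The region of Vmn1r43 in the 90 Mb cluster (chr6:89869461-89870529, minus strand, plus flanks) held opposite marks in the lines. Its H3K9me3 was 8.62, 4.34 and 7.19 RPM in the B16 controls and 12.04, 11.4 and 10.9 in the B16 KO, with no island in MC38 (adjusted p = 0.0231). Its H3K9Ac was 4.91, 6.43 and 4.54 RPM in the MC38 controls and 5.14, 8.45 and 3.30 in the MC38 KO, with no island in B16 (adjusted p = 0.00240). At its promoter, H3K9me3 islands were absent in all 3 B16 controls and covered it wholly in all 3 B16 KO libraries, a difference seen after the values were known and not tested. The acetylated islands began 0.13 to 1.73 kb downstream of the start and covered the start in no library. In all 3 MC38 controls they lay wholly past the downstream end of the gene, so the counted reads came from its flank. Only in replicate 2 of the MC38 KO did an island reach the gene itself. Vmn1r43 was the only member called for both marks. Vmn1r58 of the 5 Mb cluster had 1.39, 3.78 and 3.59 RPM of H3K9Ac in the MC38 controls and none in B16 (adjusted p = 0.0153), with islands that began 3.94 kb or more downstream of its start. Vmn1r234 of the chromosome 17 cluster had H3K9Ac islands in 8 of 12 libraries across all 4 groups, with 3.44, 1.94 and 6.98 RPM in the MC38 KO, and it passed no test. Vmn1r4 had H3K9Ac in all 12 libraries (9.18 to 26.3 RPM), but its region also holds the neighbouring gene Nt5c3, and its islands ended at least 8.71 kb before the RefSeq start used for its promoter.

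Genes that act with the receptors were taken from a list of 46 genes found in the table. For H3K9me3, 32 were tested, and between the lines 3 were higher in MC38 and 1 was higher in B16, beside 7.13% called over all regions tested. None was called for Setdb1 KO (0.312% of all regions in B16 and 0.136% in MC38). Fpr-rs6 and Fpr-rs7, formyl peptide receptor genes expressed in vomeronasal neurons, had 12.6 ± 2.86 and 10.2 ± 5.79 RPM in the MC38 controls (SD, n = 3) and no island in B16 (adjusted p = 0.0135 and 0.0143). Their relatives Fpr-rs3 and Fpr-rs4 also had islands in all 3 MC38 controls and in no B16 control, but did not pass (adjusted p = 0.0976 and 0.0692). Robo2, an axon guidance receptor, was higher in MC38 (630 ± 408 against 18.1 ± 3.49 RPM, adjusted p = 0.0487). Bcl11b, a transcription factor of the apical and basal neuron choice, had 20.8 ± 4.51 RPM in the B16 controls and no island in MC38 (adjusted p = 0.00719).

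The signalling genes, unlike the receptors, were mostly acetylated. Of 13, 4 had H3K9me3 islands in all 3 B16 controls and 3 in all 3 MC38 controls. Gnai2, Gnb1, Gng8, Gng13 and Trpc2 had no H3K9me3 island in any control or KO library. H3K9Ac islands were present at 12 of 13 signalling genes in all 3 B16 controls and at 11 of 13 in all 3 MC38 controls. Over all gene regions the shares were 49.7% and 48.9%, with region lengths not matched. Gnai2, also used outside the organ, had 94.4 ± 16.6 RPM of H3K9Ac in the B16 controls and 84.4 ± 27.8 in the MC38 controls (adjusted p = 0.596). Of 38 list genes tested for H3K9Ac, 4 were higher and 4 lower in MC38, a share near the 19.4% called over all regions, and none was called for Setdb1 KO (0.0839% of all regions in B16 and 0.126% in MC38). Gnb1, a G protein beta subunit, was lower in MC38 (86.3 ± 7.32 against 178 ± 30.3 RPM, adjusted p = 0.00212). Ano1, a calcium-activated chloride channel, was higher (234 ± 16.8 against 140 ± 18.2 RPM, adjusted p = 0.00315). Meis2, a transcription factor found in apical neurons, was lower (92.8 ± 16.3 against 343 ± 127 RPM, adjusted p = 0.00207).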

How the data were processed

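Chromatin was digested with MNase and precipitated for H3K9me3 or H3K9Ac, per the labels' protocols. The submitters' processing notes name cutadapt, Bowtie2 2.1.0, SAMtools 0.1.8, SICER 1.1 and deepTools 3.1.1 with mm10. The deposited files list SICER islands with raw read counts, and 200 bp windows, 600 bp gaps and a false discovery rate of 0.05 per the file names. Reads outside islands are not in these lists, so depth there is unknown. No input was subtracted here.

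Island counts were shared over gene regions (gene plus 2 kb on both sides) by overlap. The 12 libraries of a mark were fitted in edgeR 4.0.16 (quasi-likelihood, TMM, groups as terms, mean of at least 10 reads), with p-values adjusted over all regions tested by Benjamini-Hochberg, threshold 0.05. DESeq2 1.42.0 was an alternative. Promoters were aligned with BLAST 2.17.0. On simulated B16 KO data with 50 H3K9me3 regions changed per size, edgeR recovered 22 at 4-fold and 49 at 8-fold. The simulated spread between libraries (dispersion) was far below the common value of 3.78 in the H3K9me3 data. Only regions with many reads were changed. These rates therefore do not show which changes the fit of the real libraries could detect.

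The members and lists were chosen with earlier results of these data known. Named genes were those with the smallest p, up to 4 per direction and contrast, the highest and lowest of each cluster, those with H3K9Ac in all 3 libraries of a group, and those outside clusters. Same-numbered H3K9Ac libraries deviated together in B16 (r = 0.267 to 0.531) and MC38 (0.156 to 0.497), so these numbers were taken to pair the samples. The labels do not say what a number stands for. The adjusted p-values printed come from the fit without a term for the number (replicate block). With this block, edgeR gave H3K9Ac adjusted p = 0.00334 for Vmn1r181, 0.00764 for Vmn1r183, 0.00880 for Vmn1r43 and 0.0311 for Vmn1r58 between the lines. Alternatives were other scaling, tests, filters, flanks, island thresholds, cluster gaps and left-out libraries.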

Additional observations from a re-analysis of the deposited data

How the results depend on the processing

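Of 158 alternative counts of called members, 136 stayed within 1.5 times the value reported. Most of these compare 0 with 0, as no member was called for Setdb1 KO or for the difference of KO effects with either mark. The share therefore does not show that the calls between the lines are stable. DESeq2 called more H3K9me3 members: 7 for Setdb1 KO in B16, 10 in MC38, 11 for the difference between the lines' KO effects and 33 between the lines. It also called more of all regions tested, as given above. Between the lines, H3K9me3 calls were 0 without flanks, 13 with only the groups compared and 1 to 12 with single libraries left out, and H3K9Ac calls were 0 without flanks and 4 to 5 with single libraries left out. Leaving out single libraries gave 0 to 1 H3K9me3 calls for KO in MC38 and 0 to 1 for the difference of KO effects, with 1 each time an MC38 KO library was left out. The single MC38 KO call was lower in the KO without replicate 1 of that group and higher without replicate 2 or 3. Between the lines, 1 call was higher and 5 lower in MC38, but 2 were higher and 0 lower without replicate 3 of the B16 control, and 1 was higher and 0 lower without replicate 2 of the B16 KO. The cause of these shifts was not tested, beyond the fewer regions tested without flanks.

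With a replicate block, H3K9me3 calls between the lines were 0 in place of 6 (401 in place of 1832 over all regions). Same-numbered H3K9me3 libraries did not all deviate together (r = 0.0135 to 0.211 in B16, where 3 of 3 matched their own number best, and -0.254 to 0.308 in MC38, where 1 of 3 did). Across the control libraries of both lines r was 0.0345 to 0.128, and 3 of 3 matched their own number best, a hint from the data. As not every r was over 0.1, the numbers were not taken to pair the samples. The block changed no H3K9Ac count of members (4 between the lines and 0 for the KO comparisons).

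Counts of members with H3K9me3 islands in all 3 libraries depended on the rule. In the B16 control 53 became 32 with stricter islands, 27 without flanks and 22 when at least 50% of a region had to be covered. In the B16 KO 66 became 39 without flanks and 36 at 50% cover. In the MC38 control 33 became 17, 9 and 4, and in the MC38 KO 29 became 9, 9 and 4. Leaving out single libraries gave 55 to 61 in the B16 control, 69 to 73 in the B16 KO, 35 to 49 in the MC38 control and 32 to 64 in the MC38 KO. For H3K9Ac each group had 1 without flanks and 0 at 50% cover, and single libraries left out gave 3 to 5 in the B16 KO. All 3 chromosome 6 clusters together lay above the chromosome 13 cluster in 10 libraries, and in 7 without flanks. Of 336 comparisons of a cluster level with an alternative setting, 301 moved by at most 1 SD. Leaving out 1 of 3 libraries cannot move a mean by more than that. The shorter cluster gap left most clusters as they were. The count therefore says little about how stable the levels are. By total island reads the 57 Mb cluster in B16 overlapped between KO and control (1.95 against 2.15). Island lists hold no reads below the calling threshold, so a value of 0 does not show that the mark is absent.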
